A study of Mus musculus with 19 samples.

Results

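Sorted neoplastic cells of lung tumors in which *Cebpa*, *Cebpb* and *Cebpd* had been targeted were compared directly with those in which *Lkb1* (gene symbol *Stk11*) had been targeted. The comparison rests on 12 of the 19 RNA-seq libraries, 7 from tumors started with a Cre vector that carried sgRNAs against all 3 *Cebp* genes (sgCebpa/b/d) and 5 with one against *Lkb1* (sgLkb1), chosen by the virus in the sample labels, and asks which genes differ between tumors in which different factors were targeted. The remaining 7 libraries, made with a vector of inert sgRNAs (sgInert), are used for reference. All tumors, the sgInert ones included, arose in mice of 1 genotype on a mixed C57BL/6J and 129 background, which carry Cre-dependent alleles of tdTomato (R26LSL-tdTomato) and Cas9 (H11LSL-Cas9). Cre and the sgRNAs reached the lung epithelium in 1 lentiviral vector given into the trachea in a volume of 60 µL, and cells were sorted 17 weeks later. The sort kept tdTomato-positive cells that lacked blood, endothelial and macrophage surface markers. Editing by Cas9 is not uniform, and each library is a population of cells that can carry different edits or none. The animals were young adults of both sexes when tumors were started.

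C/EBP proteins are basic leucine zipper transcription factors that bind a shared, partly palindromic DNA element as dimers. In the lung, C/EBPα is known for driving the maturation of alveolar type II (ATII) cells, and in liver and myeloid cells the family drives acute-phase, lipid and antimicrobial genes. LKB1 is a serine/threonine kinase that works in a complex with STRAD and MO25 and switches on AMPK and related kinases, among them the salt-inducible kinases (SIKs). SIKs restrain the CRTC coactivators of the transcription factor CREB.

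Expected counts summed to 2760731 to 9944134 per sgCebpa/b/d library and 6028922 to 9234683 per sgLkb1 library. Titles carry an MT animal number in 4 sgCebpa/b/d libraries (2 animals, 3 libraries from one of them) and 3 sgLkb1 libraries (2 animals), all from females. The other 3 sgCebpa/b/d libraries came from males and the other 2 sgLkb1 libraries from females, with no animal number in their titles, so that among these sex and group cannot be told apart. Among the 7 sgInert libraries, 3 carry MT and 4 carry ZR animal numbers, a series that neither targeted group has. Of the sgInert libraries 3 came from females and 4 from males, so that readings against sgInert also differ in title series and sex. The study's methods give 1 dose of virus for all 3 groups, but the numbers of the MT sgCebpa/b/d animals also appear in an experiment with another dose. Sex-linked genes matched the labels, and the Y-linked gene *Kdm5d*, which was called between the groups, is left out below. Epithelial genes (*Epcam*, *Cdh1*, *Krt8*, *Krt18*, *Nkx2-1*, *Sftpc*, *Sftpb* and *Napsa*) summed to 14270 to 20820 CPM (counts scaled to the TMM-normalized size of the library) in sgCebpa/b/d and 15610 to 19960 CPM in sgLkb1 libraries, and none of these 8 genes was called between them. In libraries of sorted cells, fewer cells of a type and less RNA per cell cannot be told apart. n counts libraries and not animals, and p-values therefore measure the spread between these libraries.

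The targeted genes were read first. *Stk11* (chr10:80115803-80130682, plus strand) was at 9.23, 7.53, 7.58, 12.5 and 8.301 CPM in sgLkb1 replicates 1 to 5, and at 14.5 to 26.1 (median 18.5) CPM in sgCebpa/b/d libraries. All 5 sgLkb1 libraries therefore lay below all 7 sgCebpa/b/d libraries, and also below the sgInert libraries at 19.5 to 22.9 CPM (log2 fold change 1.09, standard error 0.17, edgeR adjusted p = 2.84e-04 for sgCebpa/b/d minus sgLkb1, as are all fold changes below unless another contrast is named). Without sgCebpa/b/d replicate 7 the fold change of *Stk11* was 0.98, under the minimum of 1. *Cebpa* (chr7:35119293-35121928, plus strand) was at 56.3, 39.98, 44.4, 35.98 and 41.2 CPM in sgLkb1 libraries and at 71.9 to 125 (median 93.2) CPM in sgCebpa/b/d libraries, which put every sgCebpa/b/d library above every sgLkb1 library (log2 fold change 1.15, standard error 0.16, edgeR adjusted p = 7.17e-05). The sgInert libraries were at 42.7 to 68.8 CPM, also below all sgCebpa/b/d libraries, and *Cebpa* was thus higher in the libraries in which it was targeted, at 0.73 (edgeR adjusted p = 0.00148) against sgInert. *Cebpb* had a fold change of 0.66 (edgeR adjusted p = 0.414) and *Cebpd* one of −0.26 (edgeR adjusted p = 0.72). *Cebpb* differed between the titles, at 3.98 to 5.11 CPM in the MT-numbered and 15.8 to 23.6 CPM in the unnumbered sgCebpa/b/d libraries. Cas9 leaves small insertions and deletions that need not remove a transcript, so the levels of the C/EBP transcripts do not check the labels. *Cebpg*, a family member that was not targeted, had a fold change of −0.33 (edgeR adjusted p = 0.0989).

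A gene was called when its adjusted p (Benjamini-Hochberg) was under 0.05 over 13986 genes tested and an absolute log2 fold change above 1, in edgeR's quasi-likelihood test over all 19 libraries. The test called 162 genes higher (1.16% of those tested) and 229 lower (1.64%) in sgCebpa/b/d libraries than in the sgLkb1 ones. Across all genes tested the median log2 fold change was 0.03. In 711 genes (5.08%) the 7 and the 5 libraries did not overlap at all, and 285 of these were among the called genes. Read against sgInert, 60 of the higher and 99 of the lower genes differed from sgInert at an adjusted p under 0.05 in sgCebpa/b/d libraries alone. Another 48 higher and 47 lower genes differed from sgInert in sgLkb1 libraries alone. For comparison, 10.1% of all genes passed this threshold for sgCebpa/b/d and 5.78% for sgLkb1. In 17 genes (7 higher and 10 lower) the groups departed from sgInert in opposite directions, in 24 (3 and 21) they departed in the same direction by different amounts, and the other 96 (44 and 52) passed in neither. Both readings share the sgInert libraries, which differ from the targeted groups in title series and sex as given above, and serve as a description.

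Among MT-numbered libraries (4 against 3, all from females), 241 genes were called higher (1.76% of 13674 tested) and 258 lower (1.89%). This fit also held the 3 MT-numbered sgInert libraries, with replicate 7, from a male, among them. Of the 391 genes called with all libraries, 280 were called in the same direction there (116 higher and 164 lower), none had the opposite sign and 2 were not tested. In the 12 libraries, a test of the difference between MT-numbered and unnumbered libraries in the size of the contrast passed an adjusted p of 0.05 in 93 genes (0.665%), 10 of them among the 391. When libraries with the same animal number were summed, leaving 5 sgCebpa/b/d against 4 sgLkb1 units, 277 genes were called, of which 260 were among the 391. When the unnumbered libraries were also summed to 1 per group (3 against 3), 117 were called, 113 of them among the 391.

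**Figure D1:**
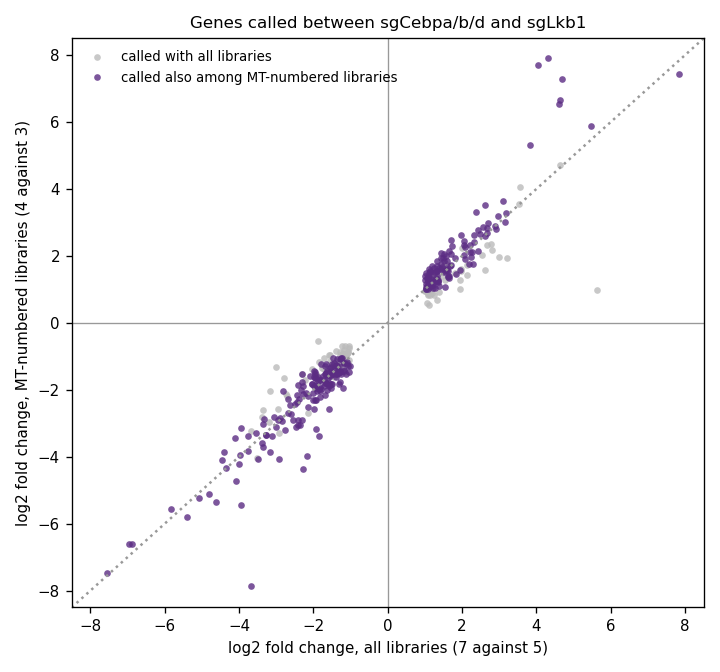
Log2 fold change between sgCebpa/b/d and sgLkb1 with all 12 libraries (x axis) and with MT-numbered libraries alone (y axis) for 389 called genes, 1 point per gene. The y values use a subset of the libraries behind the x values. All points have the same sign on both axes, and the 280 genes called in both sets are shown in purple.

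From these genes, 30 were chosen by the size of their change (the 15 highest and 15 lowest fold changes among called genes whose libraries did not overlap, with an average log2 CPM above 2 and the same call among MT-numbered libraries). To them were added the called members of gene lists. The lists were chosen with earlier results of these data known, so that the list counts and medians below are a description. Of the 30, the added list members and the targeted genes, 25 were called with any single library left out and in each of 14 other fits, the 3 against 3 comparison included. They were *Iqgap2*, *H2-DMb2*, *Corin*, *Tnxb*, *Slc40a1*, *Cbr2*, *Epdr1* and *Cdkn2c*, which were higher in sgCebpa/b/d libraries, and *Ptprn*, *Kng2*, *Pde10a*, *Dmkn*, *Ryr2*, *Pthlh*, *Slpi*, *Slc38a4*, *C3*, *Cdkn1a*, *Chil1*, *Col6a1*, *Il33*, *Lcn2*, *Pmvk*, *Scd1* and *Vldlr*, which were lower. Genes chosen by size had to be called among MT-numbered libraries, so that fit is no separate check for them.

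Genes of some secreted proteins were far lower in sgCebpa/b/d cells than in the sgLkb1 ones. Of 17 tested members of a list of antimicrobial and airway secretory genes, 3 were called lower and 0 higher, with a list median of −0.36. These were *Slpi*, *Lcn2* and *Chil1*, and the same genes were called among MT-numbered libraries. *Slpi* encodes an inhibitor of neutrophil elastase that airway and alveolar epithelium secretes. It was at 51.7, 45.2, 60.4, 107 and 60.0003 CPM in sgLkb1 replicates 1 to 5 and at 3.01 to 6.09 (median 3.68) CPM in sgCebpa/b/d libraries (log2 fold change −4.01, standard error 0.25, edgeR adjusted p = 2.41e-09). The lowest sgLkb1 library thus stood far above the highest sgCebpa/b/d library. The sgInert libraries lay between them at 14.9 to 35.3 (median 18.4) CPM, and against them *Slpi* was −2.48 (edgeR adjusted p = 4.06e-07) for sgCebpa/b/d and 1.53 (edgeR adjusted p = 1.95e-04) for sgLkb1. *Slpi* was 1 of the 17 genes that moved in opposite directions.

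*Lcn2*, lipocalin 2, binds bacterial iron carriers. Its level was 565, 536, 825, 788 and 691 CPM in sgLkb1 and 131 to 354 (median 272) CPM in sgCebpa/b/d libraries, again without overlap (log2 fold change −1.45, standard error 0.23, edgeR adjusted p = 4.35e-04). *Chil1*, a chitinase-like lectin of ATII cells, was at 302, 376, 559.7, 348 and 391.6 CPM in sgLkb1 and 34.1 to 123 (median 70.7) CPM in sgCebpa/b/d libraries (log2 fold change −2.43, standard error 0.25, edgeR adjusted p = 3.58e-06). Here both groups were below sgInert (445 to 1043 CPM), with log2 fold changes against sgInert of −3.40 for sgCebpa/b/d and −0.97 for sgLkb1. *Lyz2*, lysozyme of ATII cells and macrophages, had the same order of groups, at 11967 to 18288 CPM in sgInert, 3023 to 5638 CPM in sgLkb1 and 421 to 2734 CPM in sgCebpa/b/d libraries (log2 fold change −1.58, standard error 0.31, edgeR adjusted p = 0.00287). Its fold change was −0.97 among MT-numbered libraries, just under the minimum, and −2.90 among the unnumbered ones (difference −1.93, edgeR adjusted p = 0.0214). RSEM shares reads between *Lyz2* and its near-identical neighbor *Lyz1*, so that the values of *Lyz2* are less certain than those of single-copy genes.

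**Figure D2:**
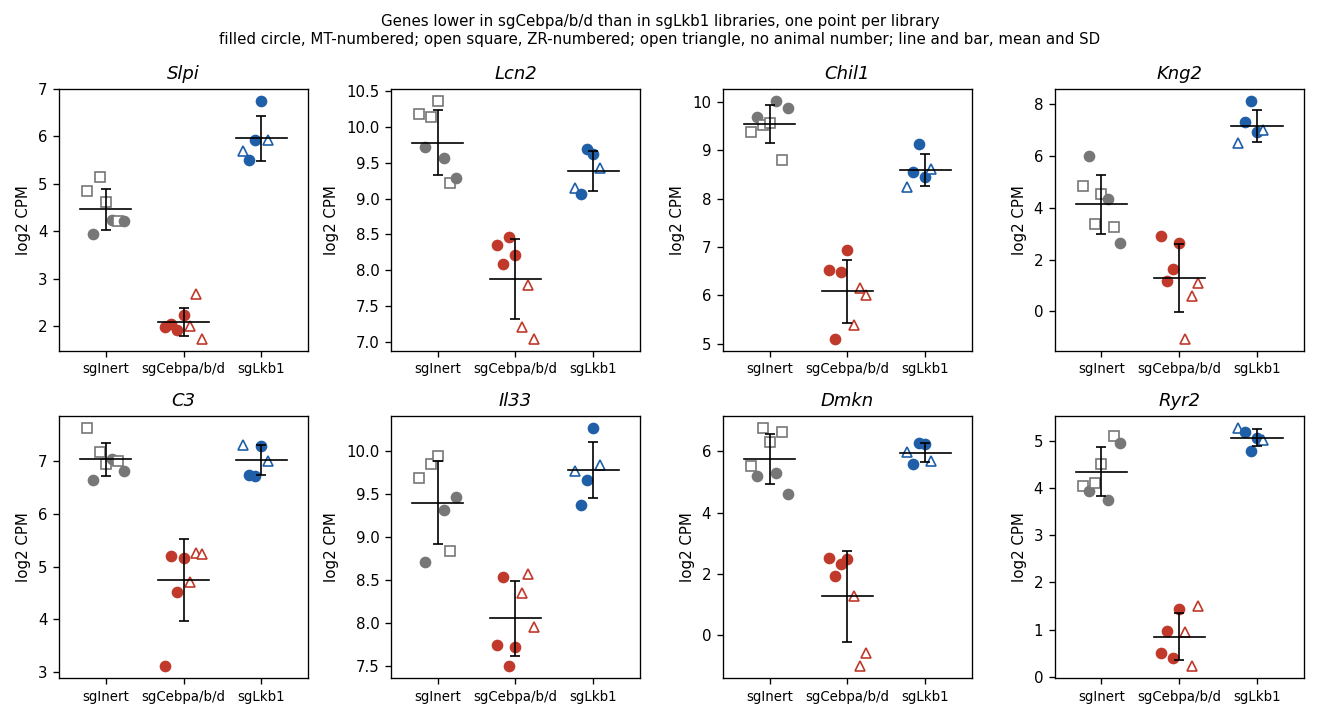
Log2 CPM of 8 genes in each of the 19 libraries, grouped by virus, with mean and SD. All 7 sgCebpa/b/d libraries lie below all 5 sgLkb1 libraries in each panel. The sgInert libraries lie between both groups for *Slpi* and near or above the sgLkb1 level for *Lcn2*, *Chil1* and *C3*. For *Kng2* they also lie between both groups, except that sgInert replicate 7 is within the sgCebpa/b/d range.

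Of 19 tested genes of complement and coagulation, 16 had a fold change below 0, with a median of −0.60 (−0.82 among MT-numbered libraries), and *C3* alone was called. *C3*, the central component of complement, was at 159, 107, 106, 156 and 128 CPM in sgLkb1 and 8.33 to 38.2 (median 35.8) CPM in sgCebpa/b/d libraries (log2 fold change −2.14, standard error 0.24, edgeR adjusted p = 6.03e-06). The sgInert libraries were at 99.5 to 197 (median 129) CPM, and the fold change of sgLkb1 against them was −0.03 (edgeR adjusted p = 0.969). *Kng2*, which encodes a kininogen and belongs to the 15 largest decreases, was at 89.5, 159, 281, 120.2 and 128 CPM in sgLkb1 and 0.1598 to 7.24 (median 1.94) CPM in sgCebpa/b/d libraries (log2 fold change −5.82, standard error 0.58, edgeR adjusted p = 2.26e-06). With sgInert libraries at 5.85 to 63.9 (median 19.7) CPM, *Kng2* was higher than in sgInert in one group and lower in the other. *Dmkn*, dermokine, is secreted by stratified and glandular epithelia. It had 62.995, 47.8, 77.5, 74.3 and 50.97 CPM in sgLkb1 and 0.169 to 5.43 (median 3.47) CPM in sgCebpa/b/d libraries (log2 fold change −4.41, standard error 0.47, edgeR adjusted p = 4.19e-06), and the sgLkb1 libraries lay within the sgInert range of 24.1 to 107 CPM.

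The upstream sequence of such genes can be read beside these values. The window from 250 bases before to 50 bases after an annotated start (RefSeq, build GRCm38.p6) was searched on both strands for the letters TTGCNNAA, a reduced form of the C/EBP element in which N is any base. The letters occurred in 10.8% of all 32851 windows and in at least 1 window of 980 of the 9708 tested genes that had one (10.1%). Among called genes with a window they occurred in 33 of 155 lower genes (21.3%) and in 19 of 107 higher genes (17.8%). In the lower genes that differed from sgInert in sgCebpa/b/d libraries alone, 16 of 66 had them (24.2%), and in those that differed in sgLkb1 libraries alone, 2 of 31 (6.45%). Lower genes that departed from sgInert in both groups had them in 6 of 16 (same direction) and 4 of 10 (opposite directions), and those that passed in neither in 5 of 32. The higher genes showed no such split, with 7 of 38 (18.4%) for sgCebpa/b/d alone and 7 of 38 (18.4%) for sgLkb1 alone. These shares are a description without a test. The palindromic CREB element TGACGTCA was present in 3.67% of tested genes, in 2 of the 155 lower and in 1 of the 107 higher genes. The 250 bases before the start are given for 5 genes of secreted proteins that were lower in sgCebpa/b/d libraries, 5′ to 3′ along the gene, with the match to TTGCNNAA or its reverse complement TTNNGCAA in capitals:
*Slpi* (chr2:164356508-164356757, minus strand): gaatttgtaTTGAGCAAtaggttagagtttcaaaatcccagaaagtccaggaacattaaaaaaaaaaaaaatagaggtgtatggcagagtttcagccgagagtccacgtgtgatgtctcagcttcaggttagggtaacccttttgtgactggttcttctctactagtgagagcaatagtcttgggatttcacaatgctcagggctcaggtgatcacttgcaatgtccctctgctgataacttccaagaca
*Lcn2* (chr2:32387740-32387989, minus strand): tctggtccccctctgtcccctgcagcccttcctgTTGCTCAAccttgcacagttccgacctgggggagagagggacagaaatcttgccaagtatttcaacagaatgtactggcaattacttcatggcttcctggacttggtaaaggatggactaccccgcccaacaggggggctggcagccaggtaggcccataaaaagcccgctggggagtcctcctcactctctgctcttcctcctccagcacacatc
*C3* (chr17:57228137-57228386, minus strand): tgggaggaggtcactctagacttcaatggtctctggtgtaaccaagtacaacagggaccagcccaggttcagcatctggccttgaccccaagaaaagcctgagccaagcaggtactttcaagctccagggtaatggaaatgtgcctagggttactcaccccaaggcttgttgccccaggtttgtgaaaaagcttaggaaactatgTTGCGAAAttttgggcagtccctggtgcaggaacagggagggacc
*Kng2* (chr16:23029102-23029351, minus strand): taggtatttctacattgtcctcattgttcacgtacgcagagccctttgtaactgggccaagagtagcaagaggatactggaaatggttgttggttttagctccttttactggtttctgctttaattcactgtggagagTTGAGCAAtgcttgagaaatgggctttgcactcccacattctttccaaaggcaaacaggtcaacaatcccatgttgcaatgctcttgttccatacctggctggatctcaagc
*Il6* (chr5:30012864-30013113, plus strand): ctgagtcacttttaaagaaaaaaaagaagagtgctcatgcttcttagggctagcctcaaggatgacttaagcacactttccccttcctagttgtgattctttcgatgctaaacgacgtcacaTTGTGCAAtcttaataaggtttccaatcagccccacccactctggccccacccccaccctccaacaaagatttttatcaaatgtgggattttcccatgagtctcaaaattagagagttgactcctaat
The first base of the match lay 45 bases before the start in *C3*, 112 in *Kng2*, 128 in *Il6*, 216 in *Lcn2* and 241 in *Slpi*. Such a match does not show that the site is bound. *Chil1*, *Ptprn* and *Pmvk* had no match in their windows.

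Of 24 tested chemokines and cytokines 3 were called lower and 0 higher, and the same number among MT-numbered libraries. *Il33*, an alarmin that ATII cells store in the nucleus, was at 876, 664, 812, 1238 and 919 CPM in sgLkb1 and 179.8 to 381 (median 246) CPM in sgCebpa/b/d libraries (log2 fold change −1.71, standard error 0.22, edgeR adjusted p = 4.12e-05). *Il6*, whose promoter is shown above, was at 54.6, 52.8, 36.6, 86.9 and 72.7 CPM in sgLkb1 and 8.33 to 24.8 (median 17.2) CPM in sgCebpa/b/d libraries (log2 fold change −1.93, standard error 0.43, edgeR adjusted p = 0.00872). Neither group overlapped the other for these 2 genes, but sgInert libraries ranged widely for *Il6* (2.6997 to 87.1 CPM) and neither targeted group passed an adjusted p of 0.05 against them. The neutrophil chemokine *Cxcl5* was the third called member. Its call was lost without any of 8 of the 12 libraries, the exceptions being sgLkb1 replicates 2 and 5 and sgCebpa/b/d replicates 4 and 7 (edgeR adjusted p up to 0.185).

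Lipid synthesis was lower in sgCebpa/b/d libraries in part of its genes. Of 28 tested genes of sterol synthesis and uptake, 8 were called lower and 0 higher in sgCebpa/b/d libraries, 25 had a fold change below 0, and the median was −0.59 against 0.03 for all genes. Among MT-numbered libraries 3 were called (*Pmvk*, *Cyp51* and *Hsd17b7*) and the median was −0.80. *Pmvk*, phosphomevalonate kinase, had the largest change, but on the side of sgLkb1. It was at 139, 73.997, 85.8, 101 and 128 CPM in sgLkb1, 9.23 to 27.4 (median 14.9) CPM in sgCebpa/b/d and 12.9 to 32.04 (median 17.9) CPM in sgInert libraries (log2 fold change −2.60, standard error 0.25, edgeR adjusted p = 1.62e-06), so that all sgLkb1 libraries stood above the rest. Against sgInert the sgLkb1 libraries were at 2.33 (edgeR adjusted p = 5.13e-06). A later enzyme of the pathway was instead low in sgCebpa/b/d libraries. *Cyp51*, lanosterol demethylase, was at 60.1, 52.7, 52.6, 70.001 and 59.1 CPM in sgLkb1 and 14.7 to 25.2 (median 20.3) CPM in sgCebpa/b/d libraries (log2 fold change −1.49, standard error 0.28, edgeR adjusted p = 0.00187). Against sgInert it was lower in sgCebpa/b/d libraries, at −1.45 (edgeR adjusted p = 8.13e-04), while sgLkb1 libraries were at 0.04 (edgeR adjusted p = 0.964).

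*Fdps*, farnesyl diphosphate synthase, had a fold change of −1.39 (edgeR adjusted p = 0.0104). *Sqle*, squalene epoxidase, had one of −1.58 (edgeR adjusted p = 0.019), which passed no longer without sgLkb1 replicate 3 or 4 (edgeR adjusted p up to 0.0692). *Hsd17b7*, an enzyme of a late step, was at −1.40 (edgeR adjusted p = 0.0191), and its call was lost without sgLkb1 replicate 4 (edgeR adjusted p up to 0.0948). *Lss*, lanosterol synthase, was at −1.09 (edgeR adjusted p = 0.0305), and its call was kept only without sgLkb1 replicate 2 or sgCebpa/b/d replicate 1, 2 or 6. With all libraries of *Fdps*, *Sqle* and *Lss* in view, none of the 7 sgCebpa/b/d libraries reached the level of any sgLkb1 library.

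*Scd1*, stearoyl-CoA desaturase, one of the most abundant transcripts in these cells, was at 13248, 15076, 20505, 13946 and 14200.1 CPM in sgLkb1 and 2363 to 5075 (median 3224) CPM in sgCebpa/b/d libraries (log2 fold change −2.21, standard error 0.18, edgeR adjusted p = 1.38e-07). The sgInert libraries at 7714 to 14999 (median 10051) CPM lay above all sgCebpa/b/d libraries and overlapped with sgLkb1. Of 37 tested genes of fatty acid and phospholipid synthesis, 4 were called lower and 0 higher, with a median of −0.33. Beside *Scd1* these were the desaturases *Fads1* at −1.06 (edgeR adjusted p = 0.0147) and *Fads2* at −1.66 (edgeR adjusted p = 0.00482) and the acyltransferase *Gpam* at −1.69 (edgeR adjusted p = 8.42e-04). *Fads1* was lost without sgCebpa/b/d replicate 5 or sgLkb1 replicate 3 or 4, with sex as a covariate and in the 3 against 3 comparison, and was at −0.87 (edgeR adjusted p = 0.118) among MT-numbered libraries. Another 5 members had an adjusted p under 0.05 with a smaller change, all of them lower, so that 9 of 37 passed in this direction and 0 in the other. Over all 13986 genes tested, 437 passed in this direction and 396 in the other.

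Genes of the amino acid response made up another group. The response is led by ATF4 when amino acids are short, and the list also held targets of NRF2, which answers to oxidants. Of 30 tested members 7 were called lower and 0 higher, 26 were below 0, and the median was −0.55. Among MT-numbered libraries 10 were called lower and the median was −0.72, while among unnumbered libraries the median was −0.25. *Asns*, asparagine synthetase, was at 21.5, 35.4, 45.8, 43.6 and 16.2 CPM in sgLkb1 and 5.79 to 20.1 (median 13.2) CPM in sgCebpa/b/d libraries (log2 fold change −1.38, standard error 0.27, edgeR adjusted p = 0.00262). In *Asns* the ranges overlapped, since the unnumbered sgLkb1 libraries (replicates 1 and 5) were low, and the sgInert libraries at 29.9 to 46.1 CPM lay above all sgCebpa/b/d libraries. *Chac1*, which degrades glutathione, had 0 to 3 counts in sgCebpa/b/d against 8 to 41 counts in sgLkb1 libraries, too few for a fold change, with an edgeR adjusted p of 0.00104. *Slc7a5*, the importer of large neutral amino acids, was at −1.64 (edgeR adjusted p = 8.07e-04), and *Mthfd2*, of the mitochondrial folate pathway, at −1.36 (edgeR adjusted p = 0.00377). Their ranges in sgCebpa/b/d and sgLkb1 libraries also overlapped, at 3.20 to 9.48 and 7.38 to 22.1 CPM for *Slc7a5* and 3.72 to 8.68 and 8.31 to 18.2 CPM for *Mthfd2*. Among unnumbered libraries neither was called (edgeR adjusted p = 0.437 and 0.372).

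*Vldlr*, a lipoprotein receptor induced by ATF4, was at 102, 92.2, 111, 173 and 74.7 CPM in sgLkb1 and 15.3 to 55.4 (median 38.9) CPM in sgCebpa/b/d libraries (log2 fold change −1.57, standard error 0.24, edgeR adjusted p = 2.55e-04). The stress hormone gene *Gdf15* was at −1.62 (edgeR adjusted p = 0.00667). *Slc7a11*, the cystine importer, had a fold change of −2.29 (edgeR adjusted p = 0.0283), which differed between the titles. It was −4.36 among MT-numbered and −0.26 among unnumbered libraries (difference 4.11, edgeR adjusted p = 0.0201), and the call was lost without sgCebpa/b/d replicate 1, 2, 4 or 6 or sgLkb1 replicate 3 or 4 (edgeR adjusted p up to 0.0916). *Atf4* itself was at −0.16 (edgeR adjusted p = 0.641).

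Several genes had their highest level in sgLkb1 libraries and were low in both other groups. *Ptprn*, a transmembrane protein of dense-core secretory vesicles, was at 133, 89.4, 88.9, 145 and 120.3 CPM in sgLkb1 and 0 to 2.04 (median 0.836) CPM in sgCebpa/b/d libraries (log2 fold change −6.86, standard error 0.60, edgeR adjusted p = 2.95e-07). The sgInert libraries had 0.244 to 12.2 CPM, so that each sgLkb1 library was above every other library of the series. *Pde10a*, which degrades cAMP and cGMP, was at 60.2, 23.99, 33.4, 42.8 and 46.5 CPM in sgLkb1 and 0 to 2.56 (median 2.01) CPM in sgCebpa/b/d libraries (log2 fold change −4.81, standard error 0.53, edgeR adjusted p = 5.69e-06), with 0 to 4 counts in sgInert libraries. *Slc2a13*, a myo-inositol transporter, was at 36.8 to 57.7 CPM in sgLkb1 and 0.508 to 11.4 CPM in sgCebpa/b/d libraries (log2 fold change −3.96, edgeR adjusted p = 0.00145). *Slc38a4*, a transporter of neutral amino acids, followed at 74.6 to 139 CPM against 1.02 to 17.7 CPM (log2 fold change −3.56, edgeR adjusted p = 2.12e-04).

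*Rbm24*, an RNA-binding protein known from muscle, was at 104, 87.95, 80.2, 131 and 106 CPM in sgLkb1 libraries. Its sgCebpa/b/d libraries split by title, with 0.339 to 0.495 CPM in the MT-numbered and 8.97 to 23.8 CPM in the unnumbered ones, and the sgInert libraries were at 0 to 1.64 CPM. The fold change of −3.67 (edgeR adjusted p = 0.00202) over all libraries thus joins unequal parts, and the MT-numbered sgCebpa/b/d libraries had too few counts for one of their own. *Gzme*, granzyme E, was at 5.801 to 26.9 CPM in sgLkb1 and 0 to 3.58 CPM in sgCebpa/b/d libraries (log2 fold change −3.75, edgeR adjusted p = 0.00985). It belongs to a cluster of near-identical granzyme genes, so that its estimate is uncertain. *Msln*, mesothelin, a marker of mesothelium that some carcinomas also express, was at 11.8, 6.58, 9.10001, 9.34 and 17.2 CPM in sgLkb1 and 0 to 2.54 (median 1.02) CPM in sgCebpa/b/d libraries (log2 fold change −3.37, standard error 0.66, edgeR adjusted p = 0.00253).

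**Figure D3:**
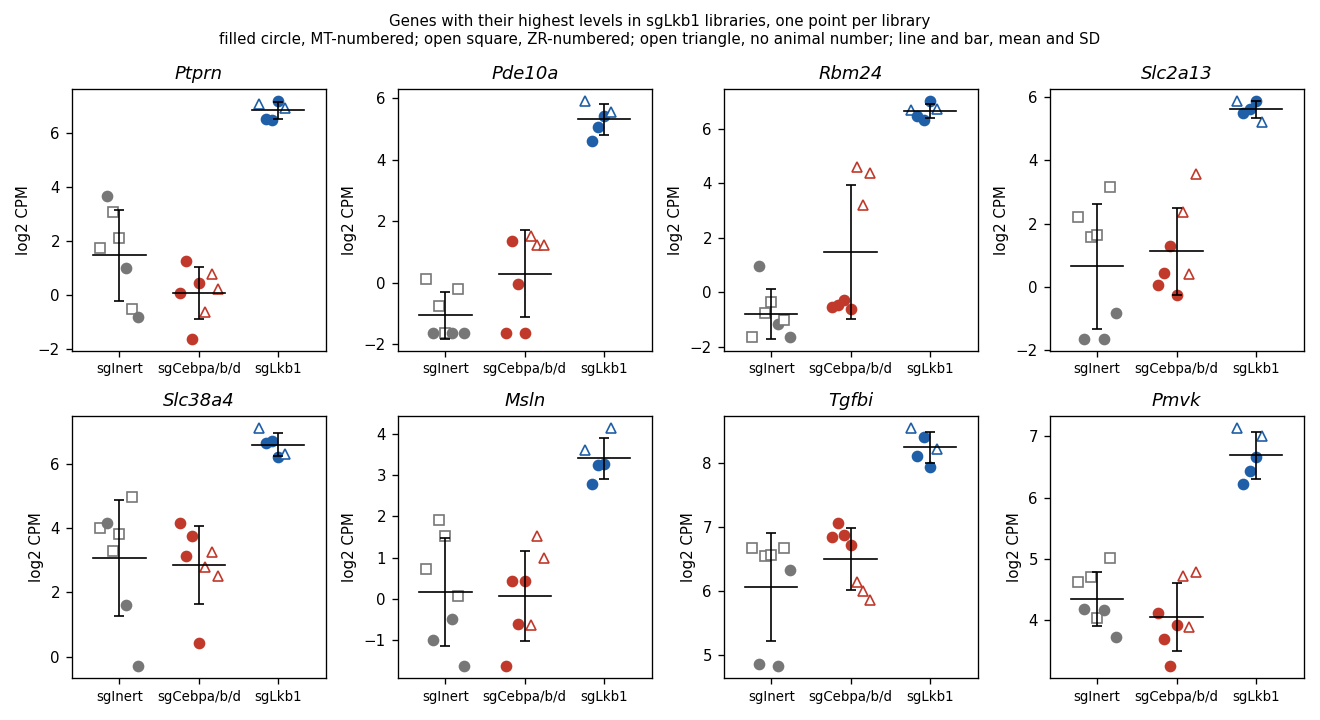
Log2 CPM of 8 genes in each of the 19 libraries, grouped by virus, with mean and SD. In every panel the 5 sgLkb1 libraries lie above all sgCebpa/b/d and sgInert libraries, and for *Rbm24* the 3 unnumbered sgCebpa/b/d libraries lie above the 4 MT-numbered ones.

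In other genes the sgCebpa/b/d libraries alone passed an adjusted p of 0.05 against sgInert. *Ryr2*, a calcium release channel of the endoplasmic reticulum, was at 37.96, 35.7, 27.3, 33.03 and 31.9 CPM in sgLkb1 and 0.846 to 2.51 (median 1.598) CPM in sgCebpa/b/d libraries (log2 fold change −4.35, standard error 0.28, edgeR adjusted p = 3.07e-09), which is 1 of the 2 smallest p-values among the genes named here. The sgInert libraries were at 13.03 to 33.8 (median 16.96) CPM. *Pthlh*, parathyroid hormone-related protein, was at 21.5, 21.5, 20.3, 27.4 and 19.7 CPM in sgLkb1 and 0 to 4.01 (median 0.677) CPM in sgCebpa/b/d libraries (log2 fold change −4.09, standard error 0.66, edgeR adjusted p = 4.02e-04), and sgInert libraries at 0.7199 to 24.4 (median 5.68) CPM overlapped with both. *Dlk1*, an imprinted Notch-related ligand on the ATII list, passed against sgInert in neither group and was at 28.5 to 107 CPM in sgLkb1 and 0.639 to 19.7 CPM in sgCebpa/b/d libraries (log2 fold change −3.35, edgeR adjusted p = 0.0101). Among MT-numbered libraries *Dlk1* was at −2.62 (edgeR adjusted p = 0.0781).

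A few matrix genes differed. Of 40 tested collagens, basement membrane proteins and matrix glycoproteins, 4 were called lower (*Col6a1*, *Col6a2*, *Col12a1* and *Fn1*) and 1 higher (*Efemp1*), 31 were below 0, and the median was −0.36. Against sgInert the list median was above 0 in both groups, at 0.58 for sgCebpa/b/d and 0.67 for sgLkb1. At an adjusted p under 0.05, 12 members were higher and 3 lower for sgCebpa/b/d, and 13 higher and 1 lower for sgLkb1. *Col6a1*, a chain of collagen VI, was at 26.7, 25.2, 32.6, 37.4 and 34.8 CPM in sgLkb1 and 5.27 to 11.5 (median 7.603) CPM in sgCebpa/b/d libraries (log2 fold change −1.93, standard error 0.27, edgeR adjusted p = 8.65e-05). Against sgInert, *Col6a1* was −2.39 (edgeR adjusted p = 2.00e-06) for sgCebpa/b/d and −0.47 (edgeR adjusted p = 0.366) for sgLkb1. *Col6a2*, which encodes its partner chain, was at −1.87 (edgeR adjusted p = 0.0105). *Fn1*, fibronectin, was at 745, 596, 686, 435 and 584 CPM in sgLkb1 and 175 to 333 (median 262) CPM in sgCebpa/b/d libraries (log2 fold change −1.29, standard error 0.38, edgeR adjusted p = 0.0455). Although the libraries of *Fn1* did not overlap, its call was lost without any 1 library other than sgCebpa/b/d replicate 7 (edgeR adjusted p up to 0.102). Its value was, for MT-numbered libraries, −1.48 (edgeR adjusted p = 3.08e-04). The sgInert libraries were at 25.8 to 204 CPM for *Fn1*. Against them it was 2.40 (edgeR adjusted p = 5.60e-04) for sgLkb1 and 1.11 (edgeR adjusted p = 0.0504) for sgCebpa/b/d. *Tgfbi*, a matrix protein induced by TGF-beta, was at 371, 276, 339, 244 and 297 CPM in sgLkb1 and 58.04 to 133 (median 105) CPM in sgCebpa/b/d libraries (log2 fold change −1.69, standard error 0.29, edgeR adjusted p = 6.71e-04). Against sgInert, *Tgfbi* was 2.02 (edgeR adjusted p = 1.64e-04) for sgLkb1 and 0.33 (edgeR adjusted p = 0.514) for sgCebpa/b/d. *Efemp1*, fibulin 3, was higher in sgCebpa/b/d libraries at 25.7 to 58.4 CPM against 10.3 to 21.2 CPM (log2 fold change 1.53, edgeR adjusted p = 0.00216).

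Markers of fibroblasts, which make these matrix proteins in the lung, are given for comparison. The 12 fibroblast markers summed to 69.8 to 249 CPM in sgCebpa/b/d and 102 to 274 CPM in sgLkb1 libraries, and 0 of 10 tested were called. Endothelial markers summed to 26.7 to 317 and 62.03 to 247 CPM, with 0 of 11 called. Among MT-numbered libraries alone, endothelial markers summed to 26.7 to 67.1 CPM in sgCebpa/b/d and 62.03 to 122 CPM in sgLkb1 libraries. No fibroblast or endothelial marker was at 0 throughout either group. Immune markers without *Lyz2* summed to 37.9 to 135 and 21.2 to 105 CPM, and *Cd14*, a receptor for bacterial lipopolysaccharide that epithelium can also express, was called higher in sgCebpa/b/d libraries (log2 fold change 1.05, edgeR adjusted p = 0.0013). Among MT-numbered libraries the immune sums were 37.9 to 41.9 and 21.2 to 29.3 CPM, without overlap. These sums include *Cd14*, which over all libraries was at 22.4 to 34.9 CPM in sgCebpa/b/d and 11.5 to 16.5 CPM in sgLkb1. Of the immune list with *Lyz2*, 2 tested members were above 0 and 2 below 0 among MT-numbered libraries. The fold change of *Cd14* was 0.98 without sgLkb1 replicate 5. Mesothelial, ciliated and basal markers, *Msln* among them, summed to 9.66 to 19.9 and 20.5 to 37.6 CPM, with no overlap between the groups. The basal marker *Krt5* was at 0 in both groups, *Ngfr* in all sgCebpa/b/d libraries and the lymphocyte gene *Nkg7* in all sgLkb1 libraries. The part of other cells in the results was not tested.

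Of 27 tested EGF ligands and genes of ERK output, 3 were called lower and 0 higher. *Btc*, betacellulin, was at 72.5, 48.4, 49.1, 62.4 and 86.2 CPM in sgLkb1 and 19.97 to 42.4 (median 28.1) CPM in sgCebpa/b/d libraries (log2 fold change −1.15, standard error 0.27, edgeR adjusted p = 0.0118), but at −0.68 among MT-numbered libraries, under the minimum fold change. *Nrg1*, neuregulin 1, was at 8.95 to 15.8 CPM in sgLkb1 and 0.511 to 5.75 CPM in sgCebpa/b/d libraries (log2 fold change −2.35, edgeR adjusted p = 0.0126). The third, *Epgn*, lost its call without any of 8 libraries, the exceptions being sgLkb1 replicate 4 and sgCebpa/b/d replicates 1, 2 and 3. Of 22 CREB coactivators and cAMP response genes, 2 were called lower. *Ppargc1a*, a coactivator of mitochondrial genes, was at 54.5, 58.3, 52.02, 45.2 and 87.4 CPM in sgLkb1 and 11.4 to 29.9 (median 19.7) CPM in sgCebpa/b/d libraries (log2 fold change −1.58, standard error 0.36, edgeR adjusted p = 0.00877). *Pde4b*, which degrades cAMP, was at −1.19 (edgeR adjusted p = 0.047), a call kept only without sgLkb1 replicate 2 or sgCebpa/b/d replicate 5 or 6, and at −1.44 (edgeR adjusted p = 6.21e-04) among MT-numbered libraries. No gene of 21 tested LKB1 partners and substrate kinases was called, the smallest adjusted p being 0.095 for *Sik1* at −0.68.

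Genes higher in sgCebpa/b/d libraries than in the sgLkb1 ones included some that departed from sgInert only with *Lkb1* targeted and some only with the *Cebp* genes targeted. *Epdr1*, an ependymin-related secreted protein, is of the former kind. It was at 6.11, 0.784, 2.27, 0.393 and 2.33 CPM in sgLkb1 and 17.9 to 49.03 (median 37.3) CPM in sgCebpa/b/d libraries (log2 fold change 3.82, standard error 0.50, edgeR adjusted p = 4.77e-05), with sgInert libraries at 12.4 to 40.6 CPM. Its fold change was larger among MT-numbered libraries, at 5.31, than among unnumbered ones, at 2.33 (difference −2.98, edgeR adjusted p = 0.03). *Bex4*, a small protein that binds tubulin, was at 7.61, 9.56, 14.9, 0.393 and 5.24 CPM in sgLkb1 and 40.1 to 51.9 (median 44.5) CPM in sgCebpa/b/d libraries (log2 fold change 2.61, standard error 0.49, edgeR adjusted p = 0.00173). The sgCebpa/b/d values of *Bex4* were close together and the sgLkb1 values spread widely. *Adcyap1*, the neuropeptide PACAP, was at 0.291 to 3.49 CPM in sgLkb1 and 5.08 to 22.8 CPM in sgCebpa/b/d libraries (log2 fold change 2.91, edgeR adjusted p = 0.00417).

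*Cbr2*, carbonyl reductase 2, an enzyme abundant in lung, moved away from sgInert in both groups and in opposite directions. It was at 74.3, 32.6, 52.6, 49.6 and 89.6 CPM in sgLkb1 and 328 to 838 (median 402) CPM in sgCebpa/b/d libraries (log2 fold change 3.16, standard error 0.39, edgeR adjusted p = 1.95e-05). The sgInert libraries were at 57.9 to 384 (median 219) CPM, and against them the changes were 1.19 (edgeR adjusted p = 0.0162) for sgCebpa/b/d and −1.97 (edgeR adjusted p = 0.00208) for sgLkb1. *Slc40a1*, ferroportin, the exporter of cellular iron, showed the same order, at 3.12, 6.898, 6.22, 1.67 and 6.99 CPM in sgLkb1 and 24.6 to 53.6 (median 37.7) CPM in sgCebpa/b/d libraries (log2 fold change 2.97, standard error 0.44, edgeR adjusted p = 1.74e-04). *Iqgap2*, a cytoskeletal scaffold protein, was at 9.14 to 40.8 CPM against 93.8 to 182 CPM (log2 fold change 2.39, edgeR adjusted p = 4.77e-05), and its fold change was 3.31 among MT-numbered and 1.33 among unnumbered libraries (difference −1.97, edgeR adjusted p = 0.0105).

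*Corin*, a membrane protease that activates atrial natriuretic peptide, was high in sgCebpa/b/d libraries alone. It was at 29.1, 27.6, 29.7, 28.1 and 36.3 CPM in sgLkb1 and 146 to 234 (median 199) CPM in sgCebpa/b/d libraries (log2 fold change 2.68, standard error 0.32, edgeR adjusted p = 1.45e-05), and the sgInert libraries at 4.77 to 40.3 (median 16.03) CPM overlapped with sgLkb1. *Tnxb*, the matrix protein tenascin X, was at 1.85, 0.941, 0.607, 1.67 and 1.31 CPM in sgLkb1 and 6.76 to 13.2 (median 10.4) CPM in sgCebpa/b/d libraries (log2 fold change 2.90, standard error 0.34, edgeR adjusted p = 1.22e-05). *Spink5*, a protease inhibitor of epithelia, was at 1.75 to 7.27 CPM in sgLkb1 and 14.5 to 25.1 CPM in sgCebpa/b/d libraries (log2 fold change 2.55, edgeR adjusted p = 0.00371), with sgInert libraries at 24.8 to 186 CPM. *Greb1* at 2.43 (edgeR adjusted p = 8.77e-04), *Lrrn3* at 2.69 (edgeR adjusted p = 8.34e-04) and *Smad9*, a transducer of BMP signals, at 2.31 (edgeR adjusted p = 0.00927) completed the protein-coding genes with the largest increases.

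**Figure D4:**
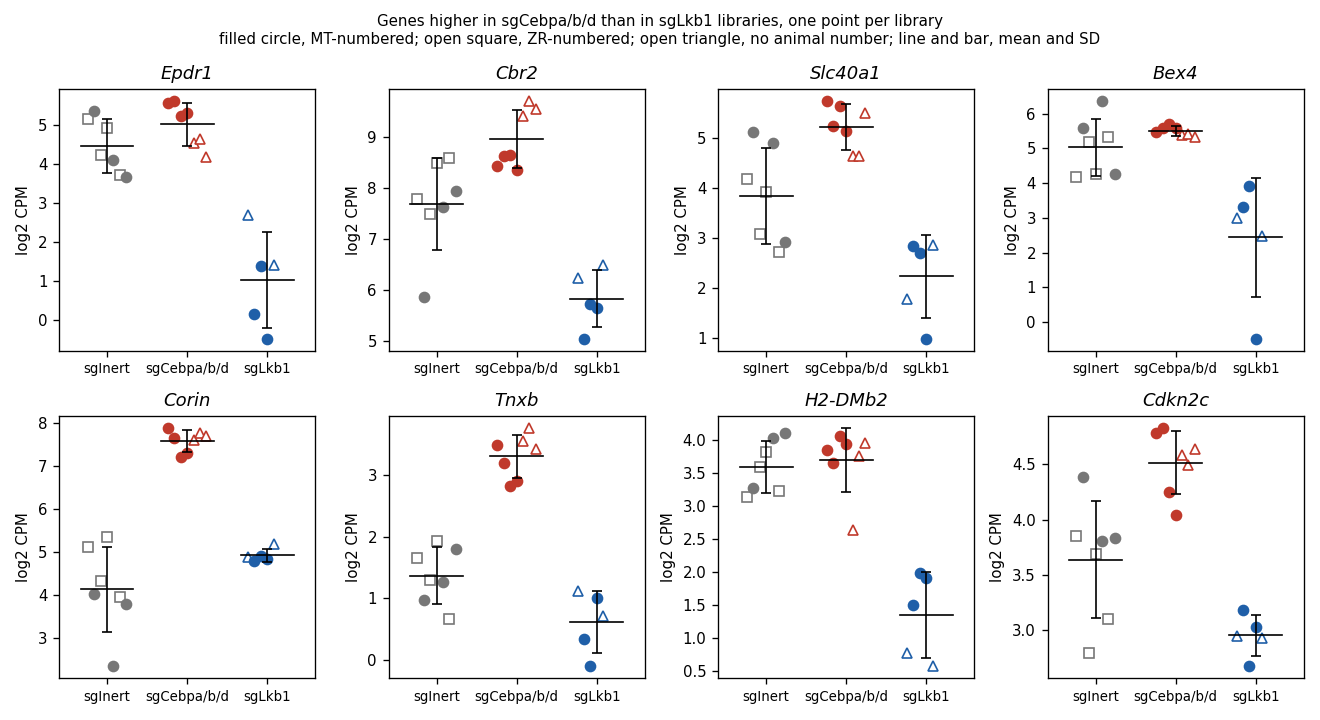
Log2 CPM of 8 genes in each of the 19 libraries, grouped by virus, with mean and SD. All 7 sgCebpa/b/d libraries lie above all 5 sgLkb1 libraries in each panel. For *Epdr1*, *Bex4* and *H2-DMb2* the sgInert libraries lie near the sgCebpa/b/d level, and for *Corin* near the sgLkb1 level.

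Some genes of MHC class II antigen presentation, which ATII cells and immune cells express, were lower in sgLkb1 libraries. Of 20 tested antigen presentation genes 1 was called, but 6 had an adjusted p under 0.05, all of them higher in sgCebpa/b/d libraries, and the median was 0.38. Over all 13986 genes tested, 396 were higher and 437 lower at this threshold. All 6 are among the 8 class II genes of the list, a subset looked at after its values were seen. *H2-DMb2*, a chain of the chaperone that loads peptides, was the called one, at 1.38, 2.51, 3.64, 3.44 and 1.17 CPM in sgLkb1 and 5.91 to 16.3 (median 14.1) CPM in sgCebpa/b/d libraries (log2 fold change 2.42, standard error 0.32, edgeR adjusted p = 4.88e-05). *H2-Ab1*, a chain of the class II molecule, was at 148, 184, 192, 151 and 177 CPM in sgLkb1 and 245 to 356 (median 328) CPM in sgCebpa/b/d libraries (log2 fold change 0.88, standard error 0.10, edgeR adjusted p = 8.06e-06). *H2-Aa* was at 0.81 (edgeR adjusted p = 7.22e-06), *H2-Eb1* at 0.87 (edgeR adjusted p = 1.74e-04), the invariant chain gene *Cd74* at 0.52 (edgeR adjusted p = 4.71e-04) and the transactivator *Ciita* at 0.59 (edgeR adjusted p = 0.0234). The remaining members, *H2-DMa* and *H2-DMb1*, were at 0.38 (edgeR adjusted p = 0.18) and 0.38 (edgeR adjusted p = 0.213). Among MT-numbered libraries the same number, 6 of 8, had an adjusted p under 0.05. Against sgInert, 5 of the 8 were lower in sgLkb1 libraries at an adjusted p under 0.05, and 0 of the 8 passed in sgCebpa/b/d libraries. The immune marker sums given above, which include the called gene *Cd14*, were lower in sgLkb1 libraries in the MT-numbered set. The part of immune cells in the class II difference was not tested.

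Inhibitors of cyclin-dependent kinases were the called genes of the cell cycle list. *Cdkn1a*, which encodes p21, was at 153, 171, 223, 186 and 179 CPM in sgLkb1 and 61.5 to 88.7 (median 71.7) CPM in sgCebpa/b/d libraries (log2 fold change −1.30, standard error 0.14, edgeR adjusted p = 4.61e-06). *Cdkn2c*, which encodes an inhibitor of CDK4 and CDK6, ran the other way, at 7.38, 8.78, 6.07, 7.87 and 7.28 CPM in sgLkb1 and 16.1 to 27.99 (median 23.7) CPM in sgCebpa/b/d libraries (log2 fold change 1.61, standard error 0.23, edgeR adjusted p = 1.17e-04). The 2 targeted groups did not overlap in either gene. Against sgInert they changed in opposite directions, *Cdkn1a* by −0.61 in sgCebpa/b/d and 0.69 in sgLkb1, and *Cdkn2c* by 0.83 and −0.78. The sgInert libraries nevertheless overlapped with the sgCebpa/b/d ones for *Cdkn1a* (78.7 to 148 CPM). For *Cdkn2c* they overlapped with both groups (6.63 to 20.6 CPM). The other 35 of 37 tested members were not called. Of the 37, 29 had a fold change above 0, and the median was 0.47, but 0.77 among MT-numbered and −0.19 among unnumbered libraries. *Mki67*, which marks cycling cells, was at 202 to 384 CPM in MT-numbered and 55.7 to 99.2 CPM in unnumbered sgCebpa/b/d libraries, against 57.7 to 131 CPM in sgLkb1 libraries. With all libraries *Mki67* was at 1.28 (edgeR adjusted p = 0.219), and among MT-numbered libraries at 1.92 (edgeR adjusted p = 0.00442). Among MT-numbered libraries 8 genes of the list were called higher and 2 lower.

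**Figure D5:**
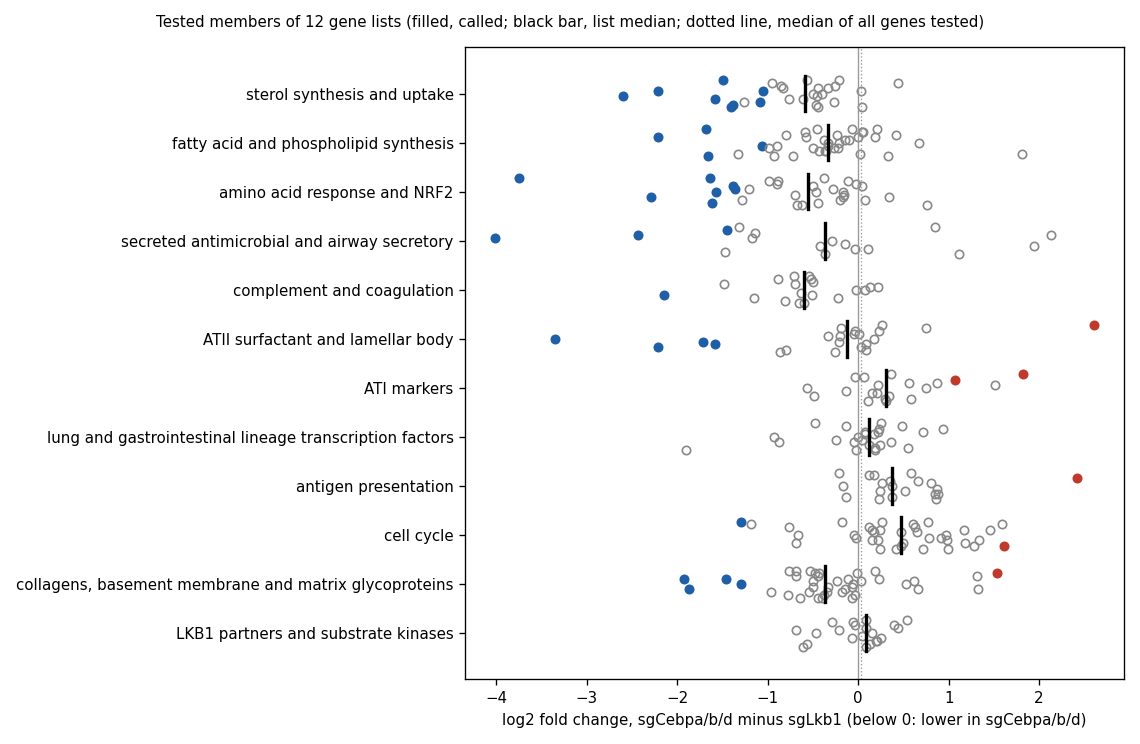
Log2 fold change between sgCebpa/b/d and sgLkb1 (x axis) of every tested member of 12 gene lists, 1 point per gene, filled where called (blue lower, red higher), with the list median as a black bar. The medians of the sterol, amino acid response and complement lists lie lowest, and no gene is called in the lists of lineage transcription factors and of LKB1 partners and substrate kinases.

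Of 25 tested lung and gastrointestinal lineage transcription factors none was called. *Foxp2*, a factor of distal lung, had an adjusted p under 0.05 at a smaller fold change, 0.56 (edgeR adjusted p = 0.00417). *Nkx2-1*, the factor that sets lung fate, was at 191, 259, 227, 263 and 213 CPM in sgLkb1 and 224 to 339 (median 251) CPM in sgCebpa/b/d libraries (log2 fold change 0.24, edgeR adjusted p = 0.297), with overlapping libraries. Among MT-numbered libraries *Sox9*, a factor of distal lung progenitors, was called higher at 1.204 (edgeR adjusted p = 0.00596) and *Pparg*, a regulator of lipid genes, lower at −2.31 (edgeR adjusted p = 0.047). Of 22 tested ATII genes, *Lyz2*, *Scd1*, *Il33* and *Dlk1* were called lower and *Bex4* higher, with a median of −0.12 (0.05 among MT-numbered libraries). The surfactant gene *Sftpc* was at 0.08 (edgeR adjusted p = 0.754). Of 20 tested ATI genes, 2 were called higher and 0 lower, with a median of 0.31. *Pdpn*, podoplanin, was at 11.9, 30.7, 47.3, 3.93 and 32.3 CPM in sgLkb1 and 67.9 to 118 (median 82.03) CPM in sgCebpa/b/d libraries (log2 fold change 1.82, standard error 0.42, edgeR adjusted p = 0.0104), and *Col4a4*, a basement membrane collagen, was at 1.07 (edgeR adjusted p = 0.00145). Neither was called among MT-numbered libraries, at 1.49 and 0.60, where the median of the ATI genes was 0.03. *Col4a4* was lost without sgCebpa/b/d replicate 7 or sgLkb1 replicate 1, 4 or 5.

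The remaining lists held few called members. Of 32 tested integrins and adhesion receptors 1 was called lower (*Itga2*) and 1 higher (*Cdh16*), and of 26 genes of glycolysis and hypoxia 1 was lower (*Ndrg1*). Of 24 matrix proteases and lysyl oxidases 1 was called higher (*Adamts9*), as was 1 of 15 gastric and mucinous genes (*Cldn2*). Of 37 ligands and response genes of TGF-beta, Wnt and Notch, 2 were lower, *Tgfbi* and *Gdf15*. *Itga2*, an integrin chain that binds collagen, was at −1.67 (edgeR adjusted p = 0.00485). The hypoxia gene *Ndrg1* was at −1.52 (edgeR adjusted p = 0.0194) and passed no longer without sgLkb1 replicate 5 (edgeR adjusted p up to 0.0569). *Adamts9*, a matrix protease, was at 1.08 (edgeR adjusted p = 0.0104), with a fold change of 0.98 without sgCebpa/b/d replicate 4. *Cldn2*, a claudin that forms cation pores, was at 2.25 (edgeR adjusted p = 0.0179), and its call was lost without sgLkb1 replicate 1, 4 or 5. *Cdh16*, a cadherin, was at 1.12 (edgeR adjusted p = 0.0428) and was kept only without sgCebpa/b/d replicate 5 or 7.

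Of the 30 largest changes, 6 are in genes without a settled product. *Gm10020* (chr15:52477617-52478228, minus strand) and *Gm10704* (chr3:88576410-88577139, minus strand) are annotated as processed pseudogenes. *Gm10020* had 0 to 3 counts in sgCebpa/b/d and 106 to 229 counts in sgLkb1 libraries, and *Gm10704* had 0 to 3 and 58 to 108. In sgInert libraries both ran from near 0 to high (0 to 51.7 CPM for *Gm10020* and 0.258 to 25.4 CPM for *Gm10704*), so that they differed between libraries of 1 group as much as between groups. The high values of both were in sgInert replicates 1, 3 and 6, which are ZR-numbered and from males. The other sgInert libraries had at most 0.487 CPM of *Gm10020* and 0.974 CPM of *Gm10704*. Reads of a pseudogene can be shared with its parent gene, and these values are uncertain. *Gm45332*, a long noncoding RNA, was at −3.95 (edgeR adjusted p = 0.00111), *Gm42676*, a transcript of undetermined class, at 2.47 (edgeR adjusted p = 0.0048), *Vmn2r-ps21*, an unprocessed pseudogene, at 3.18 (edgeR adjusted p = 0.00381), and *Gm8113*, a predicted protein-coding gene, at −3.48 (edgeR adjusted p = 9.46e-05).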

How the data were processed

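RNA-seq was performed on sorted neoplastic cells. The authors aligned paired reads to mm10 (STAR v2.6.1d) and estimated expression per gene with RSEM v1.2.30, and deposited expected counts, TPM and effective lengths per library. The deposited expected counts entered the tests after rounding. The authors' effective lengths were used only to form length offsets in an alternative fit, and their TPM values entered no test. Deposited fold changes, p-values and normalized counts from DESeq2 v1.26.0 were not used.

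Genes were filtered with filterByExpr (minimum count 10, minimum total 15), scaled by TMM and tested with the quasi-likelihood F-test of edgeR v4.0.16 (R v4.3.3), with all 19 libraries in 1 model of 3 groups without covariates. Log2 CPM used a prior count of 2. Every p-value given is adjusted by the Benjamini-Hochberg method over all genes tested in that fit. Standard errors were derived from the fold change and the F statistic of the same test.

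The named genes are the 15 highest and 15 lowest fold changes, chosen as stated beside them, the called members of the gene lists and the targeted genes. Genes and lists were chosen with earlier results of these data known. Some called members of the lists are counted but not reported here by name. Other genes named beside them serve as pathway context. The procedure was tested on simulated counts. Alternatives used DESeq2 v1.42.0 and limma v3.58.1 (voom), other scalings and filters, covariates and subsets of libraries, and each library was left out in turn. Positions are from GENCODE M21 (GRCm38) and upstream sequences from RefSeq (GRCm38.p6), which held a window for 9708 of 13986 genes tested. Replicate pairs differed by more than sampling noise, with a chi-square of 6.94 to 75.4 per gene.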

Additional observations from a re-analysis of the deposited data

Results flagged for a closer look

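Of 168 sets of values (the named genes in each group), 8 held a library far from the others of its group by Dixon's test, where chance gives about 1 in 20. In sgCebpa/b/d libraries, *H2-DMb2* was low in replicate 5, at 2.64 on the log2 CPM scale against 3.65 to 4.06 in the others. *C3* was low in replicate 1 (3.11 against 4.52 to 5.27), and *Fads2* in replicate 7 (0.87 against 1.81 to 2.21). In sgLkb1 libraries, *Greb1* was low in replicate 4 (1.06 against 3.01 to 3.61) and *Fdps* in replicate 2 (4.70 against 5.06 to 5.18). *Corin* was high in sgLkb1 replicate 5 (5.19 against 4.80 to 4.91), and *Pthlh* in sgLkb1 replicate 4 (4.79 against 4.32 to 4.45). The Y-linked gene *Kdm5d* reached −1.19 in sgLkb1 replicate 1, a female library, against −1.63 in the others, a difference of a single count. None of these libraries reached the range of the other group, except for *Kdm5d*.

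For 6 of 84 named genes the fold change differed between MT-numbered and unnumbered libraries at an edgeR adjusted p under 0.05. It was smaller among unnumbered libraries for *Epdr1* (5.31 among MT-numbered and 2.33 among unnumbered libraries, difference −2.98), *Iqgap2* (3.31 and 1.33, difference −1.97) and *Slc7a11* (−4.36 and −0.26, difference 4.11). *Rbm24* had a difference of 5.30, but its MT-numbered sgCebpa/b/d libraries were at 0.339 to 0.495 CPM, a few counts each, so that the size depends on the prior count. The decrease was larger among unnumbered libraries for *Lyz2* (−0.97 and −2.90, difference −1.93) and *Tgfbi* (−1.28 and −2.40, difference −1.10). Unnumbered sgCebpa/b/d libraries were all from males and the sgLkb1 ones from females, so that sex and title cannot be told apart in these differences.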

How the results depend on the processing

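The 391 called genes (162 higher, 229 lower) became 117 (44 higher, 73 lower) when libraries of an animal and unnumbered libraries were summed (3 against 3), 833 (396 and 437) without a fold minimum and 225 (90 and 135) at an adjusted p under 0.01. Among MT-numbered libraries fitted without sgInert, 256 were higher. Leaving out 1 library gave 309 to 378 genes (120 to 152 higher, 187 to 232 lower), lowest without sgLkb1 replicate 4. The other settings gave 277 to 551 genes, among them 507 by DESeq2, 451 by limma-voom and 362 with length offsets. Over the 83 named genes followed, 1952 of 2156 values kept their call, 204 lost it and 0 reversed. The cause of lost calls was not tested, beyond the smaller number of samples.

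Libraries with the same replicate number correlated at −0.30 to 0.34, and no sgLkb1 library correlated best with its own number, so the numbers were not taken as a pairing. With a replicate block 364 genes were called (157 higher, 207 lower). Of the list medians, 43 of 364 values under other settings and 10 of 312 with a library left out moved by more than the spread between libraries. With DESeq2 size factors the median of all genes was 0.03. Genes of a few counts per library, such as *Chac1*, are limited by depth.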

Other observations

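Other genes differed in the same manner and were picked after their values were seen. The imprinted *Dlk1*-*Meg3* region holds genes that are expressed from 1 parental chromosome, and its noncoding RNAs were lower in sgCebpa/b/d libraries than in the sgLkb1 ones. *Meg3* was at −2.34 (edgeR adjusted p = 9.50e-06), *Rian* at −2.28 (edgeR adjusted p = 8.50e-06) and *Mirg* at −2.31 (edgeR adjusted p = 0.0013), and each was called among MT-numbered libraries too, at −2.02, −1.88 and −1.54. The protein-coding neighbors *Dlk1* and *Rtl1* were at −3.35 (edgeR adjusted p = 0.0101) and −2.04 (edgeR adjusted p = 0.0104) and were not called there. Transcripts of the region overlap, and reads can be shared between them.

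Single genes outside the lists, likewise picked after their values were seen, ran in both directions. *Trf*, transferrin, was at −2.89 (edgeR adjusted p = 1.45e-05), and the metalloreductase *Steap4* at −3.10 (edgeR adjusted p = 4.77e-05). *Itih4*, an acute-phase plasma protein, was at −2.84 (edgeR adjusted p = 5.95e-06), and *Mfsd2a*, an importer of lysophosphatidylcholine, at −1.99 (edgeR adjusted p = 2.50e-06). Against sgInert, *Steap4* was −1.65 (edgeR adjusted p = 0.00681) for sgCebpa/b/d and 1.46 (edgeR adjusted p = 0.0252) for sgLkb1, while *Trf* was −2.42 (edgeR adjusted p = 3.45e-05) and 0.48 (edgeR adjusted p = 0.491). *Lrrk2*, a kinase expressed by ATII cells, was at −1.30 (edgeR adjusted p = 7.42e-06). *Car2*, a carbonic anhydrase, ran the other way at 2.23 (edgeR adjusted p = 2.60e-06), with 0.78 (edgeR adjusted p = 0.00981) for sgCebpa/b/d and −1.45 (edgeR adjusted p = 3.10e-04) for sgLkb1 against sgInert.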
